A study of Mus musculus with 44 samples.

Results

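The 9 genes described here encode the main routes and carriers by which kidney tubule cells take sodium back from the filtrate. They are Slc9a3, Slc9a3r1, Slc12a1, Slc12a3, Scnn1a, Scnn1b, Scnn1g, Atp1b1 and Fxyd2, chosen by name for their function and ordered along the nephron, with the transcripts of each gene added up. All 9 were among the 12874 genes tested, those with a mean of at least 1 TPM, out of 24733 genes with any value above 0. TPM is an abundance corrected for transcript length and scaled to the same total in every library. The genes can therefore be compared with each other per length, but the sequencing depth is unknown and no counting error can be given.

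Sodium is taken up across the apical membrane by a different carrier in each stretch of the tubule, and is pumped out across the basolateral membrane by the sodium pump throughout. In the proximal tubule the sodium-proton exchanger NHE3, encoded by Slc9a3, does much of this work, and the scaffold protein NHERF1, encoded by Slc9a3r1, helps to hold and regulate it at the membrane. Slc12a1 encodes NKCC2, the sodium-potassium-chloride carrier of the thick ascending limb that loop diuretics block, and Slc12a3 encodes NCC, the sodium-chloride carrier of the distal convoluted tubule that thiazides block. Scnn1a, Scnn1b and Scnn1g encode the alpha, beta and gamma subunits of ENaC, the aldosterone-regulated sodium channel of the late distal tubule and collecting duct. Atp1b1 encodes the beta-1 subunit of the sodium pump and Fxyd2 its small gamma subunit. Renal sodium excretion varies over the day, and transcription factors of the circadian clock are known to act on several of these genes.

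The RNA came from kidneys of 129SV mice, 8 to 12 weeks old and fed at night only, in 24 polyA libraries. The mice were wild type (WT) or lacked the clock transcription factor Bmal1, encoded by Arntl (KO, Bmal -/-), and were sampled every 4 h from zeitgeber time (ZT) 0 to 20. There were 2 libraries, replicate A and replicate B, per genotype and time, and 12 per genotype. The other 20 of the 44 samples in the series, chromatin contact libraries, were not used here. The knockout is labelled as Bmal -/- with no promoter, cell type or Cre driver, the deleted exons and the sex of the mice are not given in the labels, and no label says that each library was a separate animal. The p-values therefore measure the spread between these libraries.

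Libraries that stood apart were looked for first. Arntl itself ranged from 0.295 to 12.9 TPM over the WT libraries and from 4.19 to 6.28 over the KO libraries, so its total abundance did not separate the genotypes. The library labelled KO ZT4 replicate A resembled WT in its clock genes, with Cry1 at 1.03 TPM against 11.5 to 17.8 in the other 11 KO libraries and Nr1d1 at 23.8 TPM against 1.23 to 3.46. The library labelled KO ZT12 replicate A held 0.099 TPM of the Y-linked gene Ddx3y and 0.288 of Eif2s3y, against 11.7 to 17.5 and 25.3 to 38.8 TPM in the other 23. These doubted libraries were kept under their labels. Where leaving them out changed a call for 1 of the 9 genes or moved a value by over 1.5 times, the value without them is given beside it. Genes known to differ between male and female mouse kidney also differed between the genotypes: the male-high Cyp4a12a had a median of 43.2 TPM in WT and 0.956 in KO, and the female-high Slc7a12 of 3.67 and 89.2. The part of such differences in the results below was not tested. In the sums of these genes, too, the library labelled KO ZT4 replicate A lay within the WT range. Its female-high genes summed to 16.8 TPM, against 4.88 to 38.8 in WT and 146 or more in the other KO libraries. Its male-high genes summed to 35973 TPM, the highest of KO, against 31085 to 40888 in WT. Mitochondrial transcripts took 40.5% of TPM ± 1.31 (SD, n = 12) in WT and 37.6% ± 1.97 (SD, n = 12) in KO, which leaves more of the fixed total for all other genes in KO. The lowest share was that of KO ZT8 replicate A, at 32.3% against 36.4% to 40.3% in the other KO libraries, and this library was kept too.

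Averaged over the day, 7 of the 9 genes were higher in KO kidneys, 1 was lower, and 1 did not pass. The ENaC gene Scnn1b had the largest estimate, 0.87 log2 units, followed by Slc12a1 (0.72), Scnn1g (0.63), Scnn1a (0.48), Slc12a3 (0.44), Atp1b1 (0.22) and Fxyd2 (0.17). Slc9a3r1 fell by 0.28, and Slc9a3 did not pass. Differences are KO minus WT on the log2(TPM + 0.1) scale, from limma with time as a 6-level factor and p-values adjusted over the 12874 genes by the Benjamini-Hochberg method, with 0.05 as the threshold. By the same rule 60.9% of all genes tested were called, 50.9% as higher and 10% as lower in KO, so a call alone does not set these genes apart. The median difference was 0.44 log2 units over the 9 genes and 0.15 over all genes tested. Under median-of-ratios scaling, which removes that shift of the median, 5 of the 9 were higher, 1 was lower and 3 did not pass, against 21.5% and 22.6% of all genes. With both doubted libraries left out, 7 were again higher and 1 lower, against 50.9% and 10.3% of all genes. In whole-kidney RNA, more cells of a segment and more RNA per cell cannot be told apart.

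**Figure D1:**
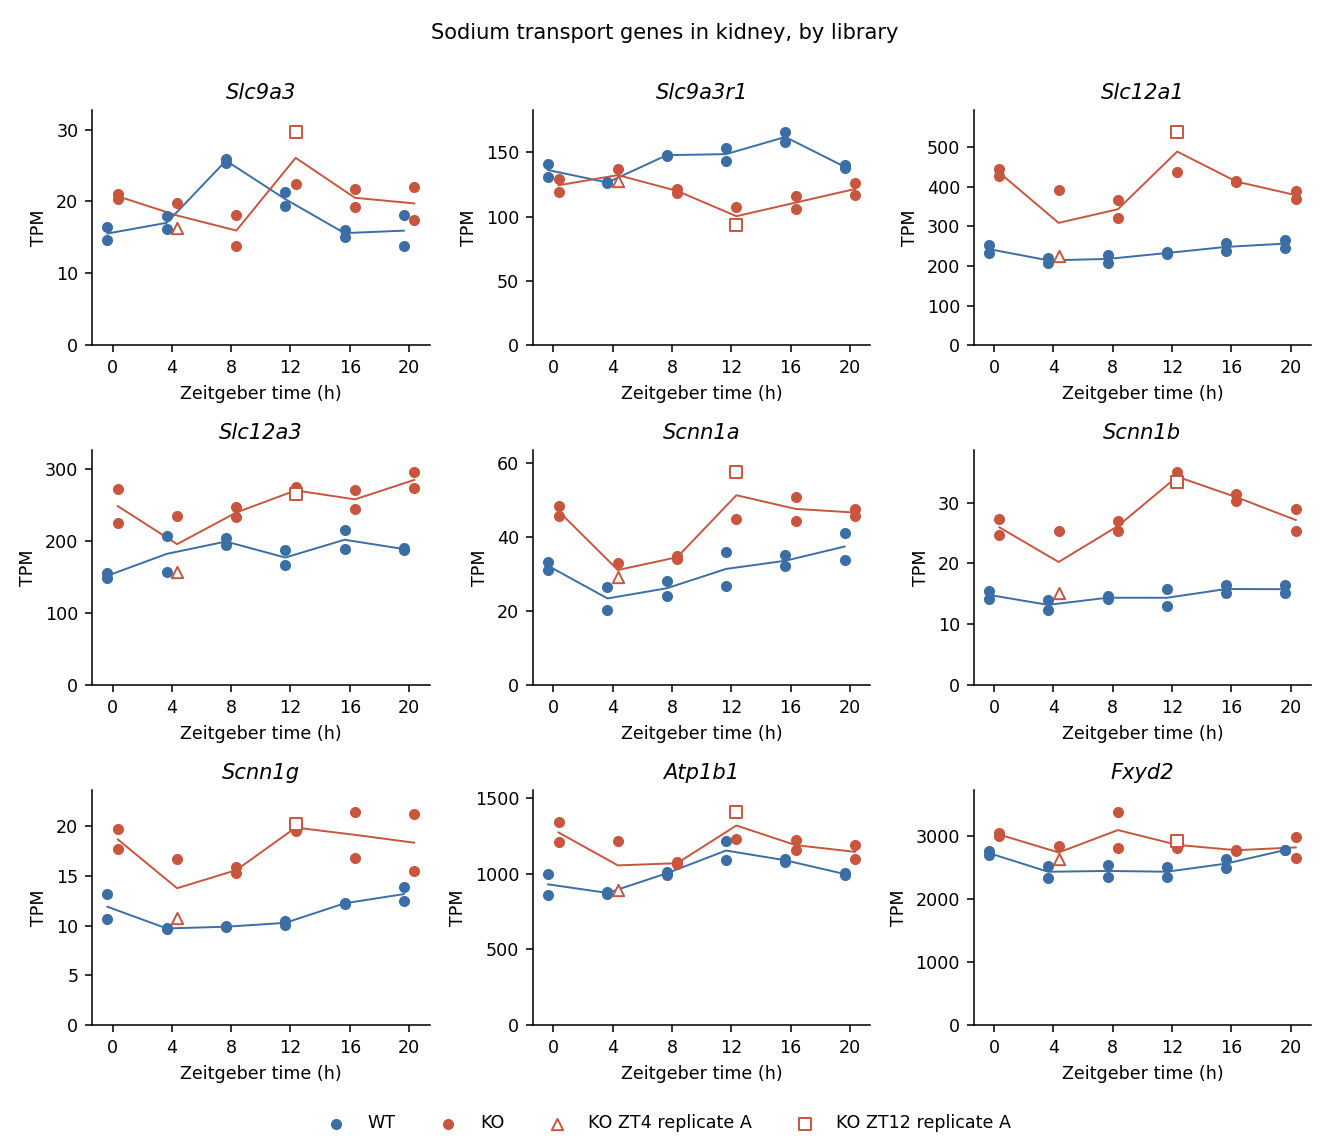
TPM of each gene (vertical axis, from 0) against zeitgeber time in hours, 1 panel per gene. Each point is a library (WT blue, KO red), lines join the means of the 2 libraries, and the libraries labelled KO ZT4 replicate A (triangle) and KO ZT12 replicate A (square) are marked. For Slc12a1, Slc12a3, Scnn1b and Scnn1g the KO libraries other than the triangle lie above every WT library.

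**Figure D2:**
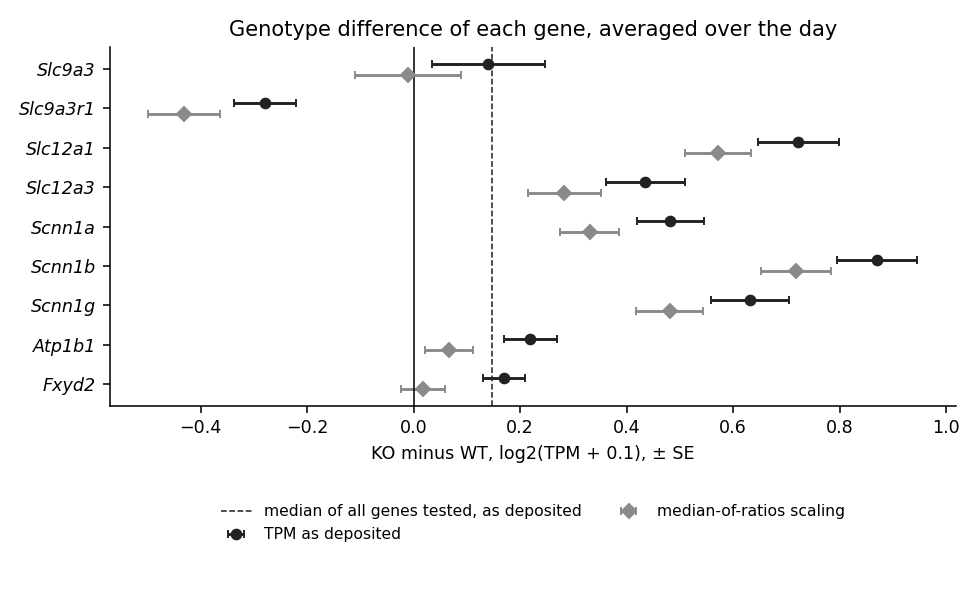
Difference KO minus WT of each gene on the log2(TPM + 0.1) scale with its standard error, averaged over the 6 times. Black circles use TPM as deposited and grey diamonds median-of-ratios scaling, and the dashed line is the median of all 12874 genes as deposited. Slc9a3, Atp1b1 and Fxyd2 lie near the dashed line, Slc9a3r1 lies below 0 under both scalings, and the other 5 lie to the right of the line.

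The levels spanned a wide range in both genotypes. In WT the order of mean TPM was Fxyd2, Atp1b1, Slc12a1, Slc12a3, Slc9a3r1, Scnn1a, Slc9a3, Scnn1b and Scnn1g, from 2564 down to 11.2. The ranges over the 12 WT libraries did not overlap between Fxyd2 and Atp1b1, Atp1b1 and Slc12a1, or Slc9a3r1 and Scnn1a, and overlapped between all other neighbours. In KO, Scnn1b stood above Slc9a3 in 11 of 12 libraries, whereas in WT Slc9a3 stood above Scnn1b in 10 of 12. The rest of the order was the same, and in KO the ranges of Slc12a3 and Slc9a3r1 no longer overlapped. The ENaC subunits were thus the least abundant messages of the set along with Slc9a3, and the pump subunits the most abundant.

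Slc9a3 (ENSMUSG00000036123, GRCm38 chromosome 13, 74121457 to 74169442, plus strand), the exchanger through which most apical sodium enters in the proximal tubule, showed no called difference in level between the genotypes and a narrowly called rhythm in WT. Its WT libraries ranged from 13.7 to 26.0 TPM with a median of 17.2, and its KO libraries from 13.8 to 29.7 with a median of 20.1. The genotypes overlapped, and only the library labelled KO ZT12 replicate A lay above every WT library. The difference was 0.14 log2 units (SE 0.11, limma adjusted p 0.260), and under median-of-ratios scaling it turned to -0.011 (adjusted p 0.942). Without KO ZT8 replicate A it was 0.21 and passed (adjusted p 0.0401).

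The time course shows where the genotypes parted. At ZT8 the WT libraries held 26.0 and 25.4 TPM, the highest of all WT libraries, and the KO libraries 13.8 and 18.1. KO minus WT was -0.70 log2 units at ZT8 and above 0 at the 5 other times, from 0.08 at ZT4 to 0.42 at ZT0, with no test made at single times. Without the doubted library of the time it was 0.22 at ZT4 and 0.14 at ZT12, in place of 0.34. At ZT12 the KO libraries held 29.7 (replicate A) and 22.4 TPM and the WT libraries 21.3 and 19.3. The 24-hour cosine fitted to WT rose and fell by 0.65 log2 units from trough to peak (SE 0.18), with the peak at 8.89 h (SE 1.05), and it passed narrowly (limma adjusted p 0.0452). Among all genes, 13.7% passed for WT rhythm, and of the 9 sodium genes 3 did. The Slc9a3 call was lost without any of 10 WT libraries (all but ZT4 replicate B and ZT20 replicate A), or without KO ZT0, ZT8, ZT12 or ZT16 replicate B or KO ZT20 replicate A, with adjusted p-values of up to 0.150. It was also lost with time as a 6-level factor (0.0613) and with no filter on mean TPM (0.0807). The same held with the trend and robust options of limma off (0.0526). In KO the fitted difference was 0.33 (SE 0.18, adjusted p 0.470) with a peak at 15.96 h. The difference in rhythm between the genotypes did not pass (adjusted p 0.251, unadjusted 0.0155).

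The clock proteins Bmal1 and Clock bind the palindromic E-box CACGTG, so the region before the start of Slc9a3 is shown with that motif in capitals. It is the 250 bases ahead of the RefSeq start site on the plus strand, chr13:74121163-74121412 (GRCm38.p6), and the E-box lies at positions -87 to -82 from the start.
Slc9a3: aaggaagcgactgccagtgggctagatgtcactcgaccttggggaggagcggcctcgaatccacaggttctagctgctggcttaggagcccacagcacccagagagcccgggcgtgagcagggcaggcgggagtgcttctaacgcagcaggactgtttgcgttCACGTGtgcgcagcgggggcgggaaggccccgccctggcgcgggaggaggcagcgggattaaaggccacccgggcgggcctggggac
Promoter sequences were at hand for 7 of the 9 genes, all but Scnn1a and Fxyd2. CACGTG, searched on both strands, was found in the Slc9a3 window only, and in 6.02% of 32851 RefSeq promoter windows of the same length. The D-box TTANGTAA was in 0 of the 7 and 2.06% of all windows. The core of the ROR element, AGGTCA, was in the window of Scnn1b alone, at -132 to -127 on the strand opposite the gene, and in 14.02% of all windows. Each match describes letters in the window and not binding.

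Slc9a3r1 (ENSMUSG00000020733, chromosome 11, 115163341 to 115181181, plus strand), the NHERF1 scaffold, was the only gene of the set that fell in KO. Its WT libraries ranged from 126 to 166 TPM with a median of 142, and its KO libraries from 93.4 to 137 with a median of 119. Of the 12 KO libraries 9 lay below every WT library, and the lowest was the library labelled KO ZT12 replicate A. The difference was -0.28 log2 units (SE 0.058, limma adjusted p 0.000401). It was -0.26 (adjusted p 0.000527) without both doubted libraries and -0.43 (adjusted p 4.2e-05) under median-of-ratios scaling.

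The daily course of Slc9a3r1 ran in opposite directions in the genotypes. In WT it climbed from a mean of 127 TPM ± 0.606 (SD, n = 2) at ZT4 to 162 ± 5.94 (SD, n = 2) at ZT16. In KO it went the other way, from 132 TPM ± 6.55 (SD, n = 2) at ZT4 down to 100.4 ± 9.88 (SD, n = 2) at ZT12. The means were close at ZT4, where KO minus WT was 0.06 log2 units, and furthest apart at ZT12 and ZT16, at -0.57 and -0.55. Without KO ZT12 replicate A the ZT12 value was -0.47, and without KO ZT4 replicate A the ZT4 value was 0.11. The fitted peak-to-trough differences were similar in size, at 0.28 log2 units for WT and 0.33 for KO, each with an SE of 0.073. The fitted peaks lay at 14.2 h (SE 1.0) in WT and 1.65 h (SE 0.85) in KO. The difference in rhythm passed (limma adjusted p 0.0152), as it did for 0.629% of all genes and for no other gene of the set. At an unadjusted p under 0.05 it passed for 2 of the 9 and 13.7% of all genes. It also passed with the library labelled KO ZT4 replicate A left out (adjusted p 0.0174) and without both doubted libraries (0.0209), but not with time as a 6-level factor (0.0881).

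Each single rhythm of Slc9a3r1 was less secure than their difference. The WT rhythm passed (limma adjusted p 0.0348) but was lost without WT ZT0 replicate A, either ZT4 library, ZT12 replicate B or either ZT16 library (adjusted p-values of 0.0631 to 0.108). Time as a 6-level factor (0.101) and no filter on mean TPM (0.0539) also lost the WT call. The KO rhythm passed as well (adjusted p 0.0329), as did 3.64% of all genes and 2 of the 9. It was lost without KO ZT0, ZT4, ZT12 or ZT16 replicate B or KO ZT12 replicate A (0.0557 to 0.0746). A fit of the KO libraries alone (0.242), median-of-ratios scaling (0.0616) and leaving out both doubted libraries (0.0807) lost it too. So did time as a 6-level factor (0.129) and no filter on mean TPM (0.0537).

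**Figure D3:**
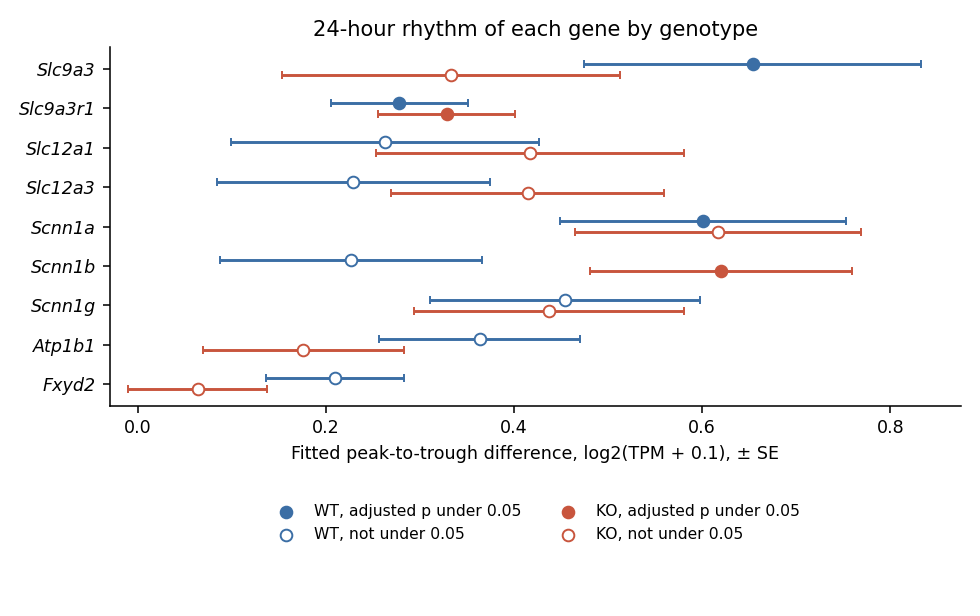
Fitted peak-to-trough difference of the 24-hour cosine for each gene (horizontal axis, log2(TPM + 0.1), with its standard error) in WT (blue) and KO (red), with filled points where the adjusted p-value was under 0.05. In WT the filled points are Slc9a3, Slc9a3r1 and Scnn1a, and in KO Slc9a3r1 and Scnn1b.

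Of 7 other genes of proximal sodium entry and NHE3 regulation, 5 were higher and 2 lower in KO, with a median difference of 0.26 log2 units. Under median-of-ratios scaling 2 were higher and 2 lower. This and the later gene and marker lists are to be read beside all genes tested, 50.9% higher and 10% lower in KO. Under median-of-ratios scaling these shares were 21.5% and 22.6%. Slc9a8, which encodes the related exchanger NHE8, fell from 60.3 TPM in WT to 36.2 in KO (-0.78 log2 units, SE 0.12, limma adjusted p 3.2e-05). Its fitted peak-to-trough difference was 0.26 in WT and 1.05 in KO, and the difference in rhythm passed (adjusted p 0.00255, and 0.0102 without both doubted libraries). Slc5a2, the sodium-glucose cotransporter SGLT2, rose from 257 to 353 TPM (0.45, SE 0.077, adjusted p 6.8e-05). Slc4a4, the basolateral sodium-bicarbonate cotransporter, rose from 146 to 191 TPM (0.39, SE 0.090, adjusted p 0.00105). Pdzk1 and Slc9a3r2, scaffolds related to NHERF1, were rhythmic in WT (adjusted p 0.0103 and 0.0333). Chp1, a calcium-binding partner of sodium-proton exchangers, was rhythmic in KO (limma adjusted p 0.0122, and 0.0436 without both doubted libraries). Over all genes, 468 passed for KO rhythm, against 12 in a fit of the KO libraries alone.

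Slc12a1 (ENSMUSG00000027202, chromosome 2, 125152505 to 125230002, plus strand), the thick ascending limb carrier NKCC2, rose in KO by 0.72 log2 units (SE 0.076, limma adjusted p 5.2e-07). Its WT libraries ranged from 207 to 267 TPM with a median of 235, and its KO libraries from 226 to 540 with a median of 403. The lowest KO value was that of the library labelled KO ZT4 replicate A and the highest that of KO ZT12 replicate A. The other 10 KO libraries lay between 320.5 and 445 TPM, all above WT. Without both doubted libraries the difference was 0.75 (SE 0.042, adjusted p 2.9e-10), and under median-of-ratios scaling it was 0.57 (adjusted p 1.2e-06). KO was higher at 6 of 6 times, by 0.47 at ZT4 to 1.06 at ZT12. Both of these extremes include a doubted library: without it the difference was 0.87 at ZT4 and 0.91 at ZT12. No rhythm passed in WT (peak-to-trough 0.26, adjusted p 0.493) or in KO (0.42, adjusted p 0.257). In a fit of the WT libraries alone the WT rhythm passed (limma adjusted p 0.0169). The KO value was 0.16 (adjusted p 0.705) with the library labelled KO ZT4 replicate A left out.

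NKCC2 is made in forms that differ by 1 alternative exon, which encodes part of a transmembrane segment and alters how the carrier handles its ions. In the GENCODE annotation the transcripts Slc12a1-202, Slc12a1-201 and Slc12a1-203 each hold their own exon 5 of 96 bases on the plus strand of GRCm38 chromosome 2, at chr2:125165495-125165590, chr2:125166123-125166218 and chr2:125166673-125166768. These exons are shown because they are the inner part of the message by which the transcripts differ, and capitals mark the 45 positions that are not identical in all 3.
Slc12a1-202: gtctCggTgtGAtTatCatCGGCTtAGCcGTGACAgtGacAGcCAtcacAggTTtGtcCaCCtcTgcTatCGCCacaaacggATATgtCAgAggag
Slc12a1-201: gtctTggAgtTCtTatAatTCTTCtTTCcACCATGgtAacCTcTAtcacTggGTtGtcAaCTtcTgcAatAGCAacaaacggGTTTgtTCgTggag
Slc12a1-203: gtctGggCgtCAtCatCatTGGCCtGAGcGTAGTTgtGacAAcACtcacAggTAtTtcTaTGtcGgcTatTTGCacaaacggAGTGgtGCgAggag
The pairs share 65.6% (Slc12a1-202 and Slc12a1-201), 68.8% (Slc12a1-202 and Slc12a1-203) and 58.3% (Slc12a1-201 and Slc12a1-203) of bases. The transcripts also differ at their outer ends: the first exon of Slc12a1-202 starts 95 bases ahead of that of the other two, about as many bases of its own as its exon 5 holds. The split between the transcripts also depends on how the authors' tool assigned shared reads.

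All 3 forms rose in KO. Slc12a1-203 went from 126 TPM ± 15.6 (SD, n = 12) to 216 ± 50.4 (SD, n = 12), a difference of 0.75 log2 units (SE 0.096, limma adjusted p 9.2e-06 over 26725 transcripts). Slc12a1-201 went from 77.6 TPM ± 9.32 to 132 ± 28.7 (0.74, SE 0.10, adjusted p 1.8e-05), and Slc12a1-202 from 23.3 TPM ± 4.01 to 31.7 ± 5.61 (0.44, SE 0.10, adjusted p 0.00184), all SD with n = 12. The retained-intron transcript Slc12a1-204 rose by 0.74 (SE 0.13, adjusted p 0.000245). Among all transcripts tested 38.8% were called, 31.7% as higher. Of the 16 tested transcripts of the 9 genes 11 were higher, 1 was lower and 4 were not called. Under median-of-ratios scaling 9 were higher, 1 was lower and 6 were not called, against 11.3% and 15.1% of all transcripts called higher and lower. The calls lost there were Atp1b1-201 (0.061, adjusted p 0.389) and Fxyd2-201 (0.0066, adjusted p 0.930).

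As shares of Slc12a1, the balance moved little. Slc12a1-203 took 53.3% in WT and 54.6% in KO (permutation test, adjusted p 0.591), and Slc12a1-201 took 33.0% and 33.4% (adjusted p 0.904). Slc12a1-202 took 9.96% ± 1.94 (SD, n = 12) in WT, over a range of 6.25% to 12.4%, and 8.16% ± 1.38 (SD, n = 12) in KO, over 6.06% to 11.6%. The ranges overlapped, and the difference of -1.80 percentage points passed in a two-sided permutation test with 100000 resamples (adjusted p 0.0342 over 8 ratios and shares, chosen after the values had been seen). It no longer passed when any of 10 libraries was left out: WT ZT0, ZT4, ZT8 or ZT12 replicate A, WT ZT8 replicate B, KO ZT0 replicate A or B, KO ZT8 replicate A, or KO ZT4 or ZT20 replicate B (adjusted p-values of 0.0512 to 0.0639). Without both doubted libraries it was -2.13 points (adjusted p 0.0119).

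**Figure D4:**
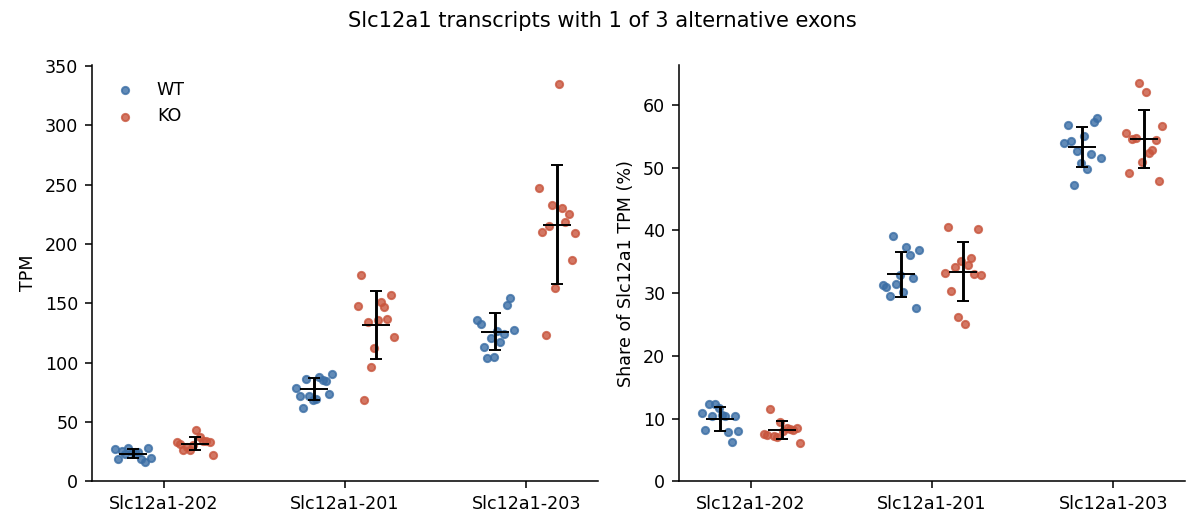
Abundance in TPM (left) and share of the Slc12a1 total in percent (right) of the 3 Slc12a1 transcripts with alternative exons, 1 point per library (WT blue, KO red), with mean and SD over 12 libraries. The KO mean is higher for each transcript on the left, and the shares on the right overlap, with Slc12a1-202 at 9.96% in WT and 8.16% in KO.

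Of 5 other genes of thick limb salt transport, 4 were higher and 1 lower in KO under both scalings, with a median of 0.48 log2 units as deposited. Kcnj1, the potassium channel ROMK that recycles potassium to NKCC2, rose from 59.9 to 102 TPM (0.76, SE 0.075, limma adjusted p 3.9e-07). Its KO libraries other than the library labelled KO ZT4 replicate A, which held 56.0 TPM, lay above every WT library. Bsnd, which encodes the channel subunit barttin, rose from 18.6 to 26.0 TPM (0.48, SE 0.050, adjusted p 5.1e-07). Umod, which encodes uromodulin, a protein that this segment secretes into the urine, fell by 0.36 (SE 0.074, adjusted p 0.000354) and was rhythmic in WT (adjusted p 0.0125). Kcnj1 and Bsnd were rhythmic in WT too (adjusted p 0.0156 and 0.0362), and Kcnj1 passed narrowly in KO (0.0492). Kcnj1 and Bsnd thus rose with Slc12a1 while the thick limb marker Umod fell.

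Slc12a3 (ENSMUSG00000031766, chromosome 8, 94329201 to 94366214, plus strand), the thiazide-sensitive carrier NCC, rose in KO by 0.44 log2 units (SE 0.075, limma adjusted p 6.8e-05). WT libraries ranged from 149 to 216 TPM with a median of 188, and KO libraries from 157 to 297 with a median of 256. The library labelled KO ZT4 replicate A was the lowest of KO, and the other 11 lay between 225 and 297 TPM, above every WT library. The difference was 0.49 (adjusted p 3.0e-06) without both doubted libraries and 0.28 (adjusted p 0.00237) under median-of-ratios scaling. KO was higher at 6 of 6 times, least at ZT4 (0.09), where the library labelled KO ZT4 replicate A held 157 TPM and replicate B 235. Without that library the ZT4 difference was 0.38. Rhythm did not pass in WT (peak-to-trough 0.23, adjusted p 0.503) or in KO (0.41, adjusted p 0.188), where the value was 0.22 (adjusted p 0.508) with the library labelled KO ZT4 replicate A left out.

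NCC rose less than NKCC2. The log2 ratio of Slc12a3 to Slc12a1 within a library went from -0.36 ± 0.20 (SD, n = 12) in WT to -0.65 ± 0.21 (SD, n = 12) in KO, a difference of -0.29 (two-sided permutation test, adjusted p 0.00581). Without both doubted libraries it was -0.26 (adjusted p 0.0119). A ratio within a library does not depend on the scaling of its total.

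NCC is switched on by the WNK and SPAK kinases, which the KLHL3-CUL3 ubiquitin ligase holds in check. Of 6 genes of this list, 5 were higher in KO and 1 did not pass, with a median of 0.46 log2 units, and under median-of-ratios scaling 4 were higher and 1 lower. Stk39, which encodes SPAK, rose from 13.2 to 19.2 TPM (0.53, SE 0.063, limma adjusted p 1.7e-06) and was rhythmic in WT (adjusted p 0.0375). Klhl3, the substrate adaptor of the ligase, rose from 5.57 to 8.67 TPM (0.61, SE 0.092, adjusted p 2.0e-05). Wnk1 rose from 169 to 234 TPM (0.46, SE 0.075, adjusted p 4.3e-05). Cul3, the scaffold of the ligase, was the gene that did not pass (-0.057, adjusted p 0.115), and it was lower under median-of-ratios scaling (-0.21, adjusted p 0.0002).

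The ENaC genes rose together in KO, and unequally. Scnn1a (ENSMUSG00000030340, chromosome 6, 125320659 to 125344943, plus strand) encodes the alpha subunit, whose abundance is under aldosterone control in the collecting duct. Scnn1g (ENSMUSG00000000216, chromosome 7, 121734479 to 121768475, plus strand) and Scnn1b (ENSMUSG00000030873, chromosome 7, 121865038 to 121918514, plus strand) encode gamma and beta and are neighbours, 96.6 kb apart.

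Scnn1b rose by 0.87 log2 units (SE 0.076, limma adjusted p 2.3e-07), a ratio of 1.83 on this scale. WT libraries lay between 12.4 and 16.4 TPM with a median of 14.9, and KO libraries between 15.2 and 35.1 with a median of 27.1. The 15.2 was the library labelled KO ZT4 replicate A, and the other 11 KO libraries lay at 24.6 TPM or more, above every WT library. The difference was 0.92 (adjusted p 4.6e-10) without both doubted libraries and 0.72 (adjusted p 4.5e-07) under median-of-ratios scaling. KO minus WT was largest at ZT12, at 1.25 (1.29 without KO ZT12 replicate A), where WT held 15.8 and 13.0 TPM and KO 33.5 and 35.1.

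Scnn1g rose by 0.63 log2 units (SE 0.073, limma adjusted p 1.2e-06). WT libraries ranged from 9.70 to 13.9 TPM with a median of 10.6, and KO libraries from 10.8 to 21.4 with a median of 17.2. Here too the library labelled KO ZT4 replicate A, at 10.8 TPM, was the only KO library within the WT range. The difference was 0.66 (adjusted p 1.1e-07) without both doubted libraries and 0.48 (adjusted p 6.5e-06) under median-of-ratios scaling.

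Scnn1a rose by 0.48 log2 units (SE 0.063, limma adjusted p 4.0e-06), with 8 of 12 KO libraries above every WT library. WT libraries ranged from 20.4 to 41.1 TPM with a median of 31.6, and KO libraries from 29.2 to 57.6 with a median of 45.3. The KO libraries at ZT4 and ZT8, between 29.2 and 35.01 TPM, overlapped WT. The difference was 0.46 (adjusted p 3.5e-06) without both doubted libraries and 0.33 (adjusted p 9.3e-05) under median-of-ratios scaling. The transcript Scnn1a-201 held 86.5% of the gene's TPM in WT and 88.0% in KO, and both it and Scnn1a-206 rose (0.51 and 0.55 log2 units, adjusted p 1.4e-05 and 0.00022).

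Slc12a1, Slc12a3, Scnn1b and Scnn1g thus share a pattern in which 11 of 12 KO libraries lay above all 12 WT libraries, the exception being the library labelled KO ZT4 replicate A each time. With that library set aside, the remaining 11 lay above all WT for 4 of the 9 genes and for 8.34% of all genes tested. With all 12 KO libraries counted it was 0 of the 9 and 1.42% of all genes.

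Because the ENaC genes rose by different amounts, the subunit ratios shifted. Scnn1a stood at 2.06 times Scnn1b in WT and 1.57 times in KO, a log2 difference of -0.39 (two-sided permutation test, adjusted p 0.00112). Scnn1b stood at 1.32 times Scnn1g in WT and 1.56 times in KO, a log2 difference of 0.24 (adjusted p 0.00392). Both passed without both doubted libraries (adjusted p 0.00104 and 0.0064). The log2 ratio of Scnn1a to Scnn1g moved by -0.15, which did not pass (adjusted p 0.0697). It passed without both doubted libraries (0.0309), without WT ZT4 replicate B (0.0189), without KO ZT12 replicate A (0.0402) and without KO ZT20 replicate B (0.0394).

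Over the day, the alpha subunit gene was rhythmic in WT. The fitted cosine of Scnn1a spanned 0.60 log2 units from trough to peak (SE 0.15), with the peak at 18.2 h (SE 0.97), and passed (limma adjusted p 0.0287). In WT its means went from 23.4 TPM ± 4.27 (SD, n = 2) at ZT4 to 37.4 ± 5.18 (SD, n = 2) at ZT20. The call was lost without WT ZT4 replicate B, ZT8 replicate B, ZT16 replicate A or ZT20 replicate A (adjusted p-values of 0.0511 to 0.0809). It was also lost with time as a 6-level factor (0.0892) and with no filter on mean TPM (0.0528). In KO its fitted difference was 0.62 (SE 0.15) with a peak at 17.1 h, which fell just short of the threshold (adjusted p 0.0545). It passed there under median-of-ratios scaling (0.0304) and without WT ZT4 replicate B, WT ZT12 replicate A, or KO ZT0 replicate A, ZT12 replicate A or ZT16 replicate B (0.0336 to 0.0494). The KO value was 0.52 (adjusted p 0.132) with the library labelled KO ZT4 replicate A left out. Without both doubted libraries it did not pass either (0.0652). KO minus WT in peak-to-trough difference was 0.016 (SE 0.22), and -0.084 with the library labelled KO ZT4 replicate A left out. The difference in rhythm did not pass (adjusted p 0.897).

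Scnn1b was rhythmic in KO (0.62 log2 units, SE 0.14, peak at 14.7 h, limma adjusted p 0.0350) and not in WT (0.23, SE 0.14, adjusted p 0.484). The KO call was lost without KO ZT0 replicate B, ZT8 replicate B or either ZT12 library (0.0514 to 0.0768). A fit of the KO libraries alone (0.250) and leaving out both doubted libraries (0.0766) lost it too. So did time as a 6-level factor (0.159) and no filter on mean TPM (0.0673). The size of the KO rhythm fell to 0.40 with the library labelled KO ZT4 replicate A left out (adjusted p 0.0463) and to 0.37 without both. The difference in rhythm did not pass (adjusted p 0.402). Scnn1g had fitted differences of 0.45 in WT and 0.44 in KO, neither of which passed (adjusted p 0.0864 and 0.156). The KO value was 0.24 with the library labelled KO ZT4 replicate A left out (adjusted p 0.431). In WT the rhythm passed once that library was left out (0.0218) and without both doubted libraries (0.0179). Under median-of-ratios scaling (0.0348) and in a fit of the WT libraries alone (0.00592) it passed too.

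Among 6 regulators of ENaC, 5 were higher and 1 lower in KO, with a median of 0.40 log2 units, and under median-of-ratios scaling 3 were higher and 1 lower. Nr3c2, the mineralocorticoid receptor, rose from 3.06 to 4.05 TPM (0.39, SE 0.071, limma adjusted p 0.00011). Hsd11b2, the enzyme that shields that receptor from glucocorticoids, rose from 65.3 to 86.2 TPM (0.41, SE 0.081, adjusted p 0.00028). Prss8, the protease prostasin, which activates the channel, fell from 143 to 117 TPM (-0.29, SE 0.052, adjusted p 0.000111). Tsc22d3, a steroid-induced gene, had the strongest WT rhythm of the list (2.11 log2 units, peak at 16.8 h, adjusted p 0.00421), and Hsd11b2 and Prss8 were rhythmic in WT as well (0.00902 and 0.0453). Sgk1, the aldosterone-induced kinase, is named after its values were seen: it ranged from 19.8 to 60.6 TPM in WT, was 236 in the library labelled KO ZT12 replicate A, 25.9 in that labelled KO ZT4 replicate A, and 35.1 to 116 in the other KO libraries. Its difference was 0.91 (adjusted p 0.00134), and 0.79 without both (0.00029).

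Atp1b1 (ENSMUSG00000026576, chromosome 1, 164437109 to 164458355, minus strand), the beta subunit that carries the pump to the membrane, was modestly higher in KO. WT libraries ranged from 862 to 1216 TPM with a median of 999, and KO libraries from 895 to 1407 with a median of 1198. The genotypes overlapped, with 4 of 12 KO libraries above every WT library. The difference was 0.22 log2 units (SE 0.050, limma adjusted p 0.000946) as deposited and 0.07 (adjusted p 0.238) under median-of-ratios scaling, so the call was lost there. With mitochondrial genes left out of the total it was 0.15 and passed (adjusted p 0.0195). Of its transcripts, Atp1b1-201 held 82.8% of TPM in WT and 83.1% in KO.

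Atp1b1 in WT climbed from 872 TPM ± 8.30 (SD, n = 2) at ZT4 to 1152 ± 89.9 (SD, n = 2) at ZT12. The fitted rhythm of 0.36 log2 units with a peak at 13.97 h did not pass (limma adjusted p 0.0617). It passed without any of KO ZT0, ZT4 or ZT12 replicate A (0.0415, 0.02 and 0.0357) and without both doubted libraries (0.00589). Under median-of-ratios scaling (0.00662) and in a fit of the WT libraries alone (0.00505) it passed too. In KO the fitted difference was 0.18 (adjusted p 0.548) and 0.051 (0.946) with the library labelled KO ZT4 replicate A left out, and the difference in rhythm did not pass (0.634).

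Fxyd2 (ENSMUSG00000059412, chromosome 9, 45399669 to 45410278, plus strand), the regulatory gamma subunit, was the most abundant message of the set. WT libraries ranged from 2338 to 2781 TPM with a median of 2531, and KO libraries from 2637 to 3383 with a median of 2823. The ranges overlapped, with 9 of 12 KO libraries above every WT library. Its difference was 0.17 log2 units (SE 0.039, limma adjusted p 0.000956) as deposited, close to the 0.15 of all genes, and 0.018 (adjusted p 0.760) under median-of-ratios scaling. With mitochondrial genes left out of the total it was 0.10 and passed (adjusted p 0.0107). Rhythm did not pass in WT (0.21, adjusted p 0.128) or in KO (0.064, adjusted p 0.847). In WT it passed without KO ZT8 replicate A (0.0499) and in a fit of the WT libraries alone (0.0264). The KO value was 0.13 with the library labelled KO ZT4 replicate A left out (adjusted p 0.492).

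Of 7 other pump subunit genes, 3 were higher, 1 lower and 3 not called in KO, against 50.9% higher and 10% lower of all genes. Their median was 0.19 log2 units, near the 0.15 of all genes. Under median-of-ratios scaling 2 were higher and 2 lower, against 21.5% and 22.6% of all genes. Fxyd4, a pump regulator of the collecting duct, rose from 13.7 to 22.7 TPM (0.71, SE 0.091, limma adjusted p 3.1e-06). Atp1b3 rose from 40.5 to 49.6 TPM (0.29, SE 0.041, adjusted p 9.4e-06).

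Relative to the median of all genes tested, the differences were 0.72 for Scnn1b, 0.57 for Slc12a1, 0.48 for Scnn1g, 0.33 for Scnn1a and 0.29 for Slc12a3. They were 0.07 for Atp1b1, 0.02 for Fxyd2, -0.0073 for Slc9a3 and -0.43 for Slc9a3r1. The carriers and channel subunits of the thick limb and beyond thus lay above the general shift, the pump subunits and NHE3 close to it, and the proximal scaffold below it. Across the 5 lists of other pathway genes, 22 of 31 were higher, 5 lower and 4 not called, against 50.9% higher and 10% lower of all genes. Under median-of-ratios scaling 15 were higher and 7 lower, against 21.5% and 22.6% of all genes.

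Markers of the distal segments mostly moved with these genes. Of 16 markers of the thick limb, distal convoluted tubule, principal and intercalated cells, 15 were higher in KO and 1, Umod, was lower. Their median was 0.47 log2 units, and 50.9% of all genes were higher and 10% lower. Under median-of-ratios scaling 13 of the 16 were higher and 1 lower, against 21.5% and 22.6% of all genes. Umod and Hsd11b2 are also in the pathway lists. All 4 markers of the distal convoluted tubule were higher (median 0.54), as were all 4 of principal cells (0.51) and all 4 of intercalated cells (0.50). Of the 4 thick limb markers 3 were higher and Umod was lower (median 0.33), and under median-of-ratios scaling 2 were higher and 1 lower (median 0.18). The summed level of the distal convoluted tubule markers ran from 100.4 to 173 TPM in WT and from 150.2 to 263 in KO, that of the principal cell markers from 183 to 306 and from 246 to 539, and that of the intercalated cell markers from 44.2 to 61.9 and from 58.9 to 95.7. The summed level of the thick limb markers went the other way, from 1107 to 1654 TPM in WT (median 1400) and from 993 to 1394 in KO (median 1103), a sum of which Umod is the larger part. That of the proximal tubule markers had a median of 1829 TPM in WT and 1828 in KO. Slc34a1 is the larger part of this sum, with means of 1474 TPM in WT and 1551 in KO. Of the 4 proximal tubule markers 0 were higher by limma's adjusted or unadjusted p, 1 (Slc22a6, which also differs between the sexes) was lower and 3 did not pass, with a median of 0.02. Under median-of-ratios scaling 2 of them were lower, Slc22a6 and Lrp2 (Lrp2 -0.15, adjusted p 0.0179), with a median of -0.13. The part of such shifts between segments in the differences of the 9 genes was not tested.

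**Figure D5:**
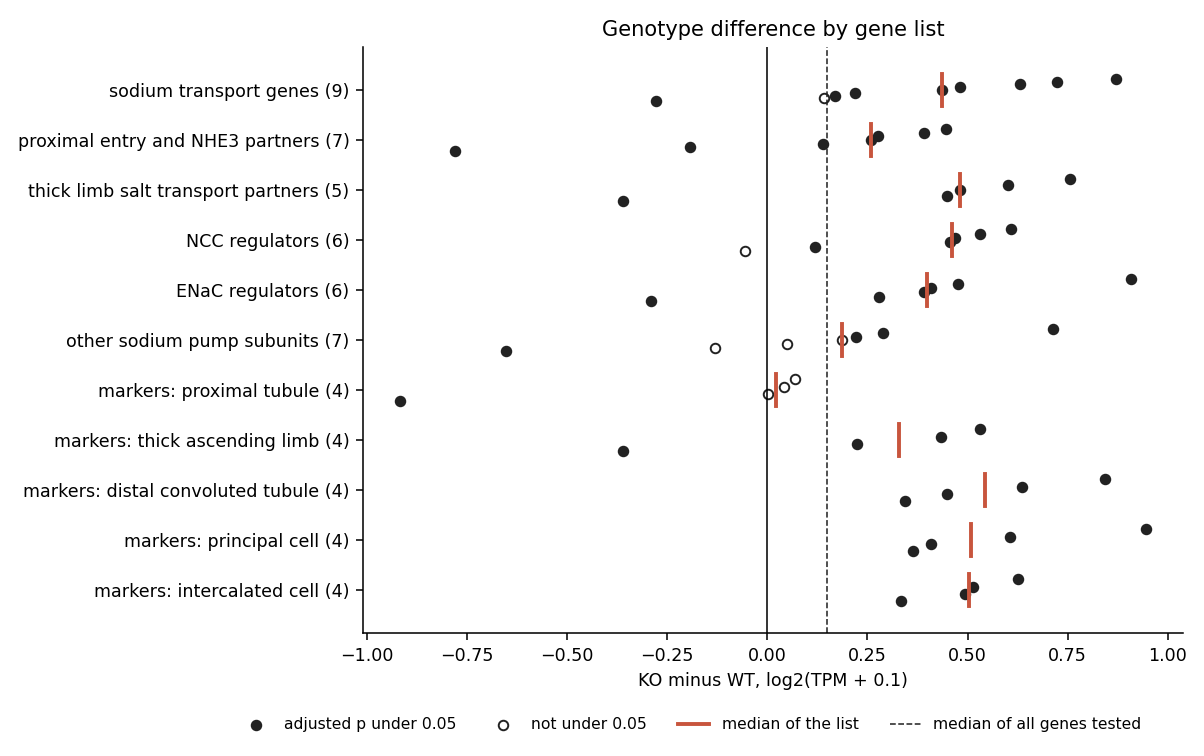
Difference KO minus WT on the log2(TPM + 0.1) scale for the 9 genes, the 5 lists of pathway genes and the 5 lists of segment markers, 1 point per gene, filled where the adjusted p-value was under 0.05. Red bars are list medians and the dashed line is the median of all genes tested (0.15). The medians are 0.44 for the 9 genes, 0.54 for distal convoluted tubule markers and 0.02 for proximal tubule markers.

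Markers of cells from outside the tubule differed among themselves. The adrenal cortex markers Cyp11b1, Cyp11b2 and Cyp11a1 summed to at most 0.221 TPM in any library, and the skeletal muscle markers to at most 1.64. The immune markers summed to 4.81 to 10.1 TPM in WT and 4.81 to 7.61 in KO, and the adipocyte markers to 0.068 to 18.0 and 0.041 to 12.7. As deposited, none of the tested immune and adipocyte markers was called for genotype (limma), and none had an unadjusted p under 0.05. Under median-of-ratios scaling 1 of these 4, the immune marker Ptprc, was lower (-0.29 log2 units, limma adjusted p 0.0315). All 3 podocyte markers were higher in KO (median 0.45, about that of the 9 genes), and all 3 were higher under median-of-ratios scaling too (median 0.30). They summed to 50.1 to 70.9 TPM in WT and 68.3 to 99.4 in KO. Of 3 erythroid markers 2 were higher (median 0.34), and 0 under median-of-ratios scaling (median 0.19). Of 3 endothelial markers 1 was higher (median 0.07), and under that scaling 1 was higher and 1 lower. The part of these cells in the differences of the 9 genes was not tested.

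The genes with the most similar profile over the 24 libraries were listed as a description. These correlations include the genotype difference and are therefore given within each genotype as well, and all libraries share the same fixed total. Atp1b1 was like Myo19 (Pearson r 0.87 over 24 libraries, 0.72 within WT and 0.87 within KO). Scnn1g was most like Efhd1 (0.97, 0.87 within WT and 0.92 within KO) and Kcnj1 (0.96, 0.88 and 0.89). Scnn1b was most like Atp6v1b1, a proton pump subunit (0.98, 0.73 and 0.95), and Aplp2 (0.97), and Scnn1a was most like Micall1 (0.93, 0.94 and 0.88) and Kcnj10 (0.92). Slc12a1 was most like Cd59a (0.99, 0.86 and 0.97) and ccdc198 (0.97), and Slc12a3 was most like Cp (0.93, 0.80 and 0.86) and Gpc3 (0.92). Slc9a3 was most like Tnks (0.86, 0.89 and 0.83) and Xrn1 (0.82), Slc9a3r1 was most like Hsd3b3 (0.93, 0.88 and 0.84) and St8sia1 (0.91), and Fxyd2 was most like the respiratory chain genes Cox6b1 (0.96, 0.94 and 0.92) and Ndufb9 (0.95).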

How the data were processed

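Kidney RNA was analysed in 24 libraries, 2 for each genotype and time, grouped by the labels alone. The authors deposited TPM per transcript in 1 table. The submitters' processing notes name kallisto 0.42.4 and the builds mm10 and GRCm38, and the index is not given in the sources used here. TPM keeps no depth, so the depth per library is unknown and no counting interval was made.

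Of 88198 transcripts, 86119 were matched by Ensembl identifier without version to GENCODE M21 (GRCm38) and summed per gene, and 2079 were not matched. limma 3.58.1 (lmFit, eBayes with trend and robust) in R 4.3.3 was run on log2(TPM + 0.1). Genes entered at a mean of 1 TPM or more (12874), and adjusted p-values under 0.05 were called. A fold on this scale understates changes of low genes. The genotype coefficient was adjusted for time, a 6-level factor. An F statistic tested rhythm, as a cosine and a sine of 24 h in each genotype, with 1 shared spread, and another tested the genotype difference in both terms. Transcripts with a mean of at least 1 TPM (26725) were fitted in the same way. For 8 within-library ratios and shares, chosen after the values were seen, two-sided permutation tests with 100000 resamples were adjusted over the 8, of which 1 is not reported here. The fits were tested on simulated data.

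The 9 genes, the pathway lists, the markers and the rule for naming genes were chosen with earlier results of these data known. That rule named all 9 genes, up to 3 genes per pathway list and test with the smallest p among those that passed, and the 2 most correlated genes for each of the 9. The lists of Y-linked (Ddx3y, Eif2s3y, Kdm5d, Uty), male-high and female-high genes were written after values had been seen. Alternatives covered the pseudocount, the filter, the scaling, the replicate letter as a block, the eBayes options, the time term, fits of 1 genotype and libraries left out; leaving out both doubted libraries, and median-of-ratios scaling without one of them, were chosen after seeing the data. The chromatin contact tables were not used here. Promoters came from a RefSeq table and exon bases from the RefSeq genome (both GRCm38.p6), at GENCODE positions.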

Additional observations from a re-analysis of the deposited data

Results flagged for a closer look

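The rhythm of Slc9a3r1, the NHERF1 scaffold, differed between the genotypes by a test of the difference itself. KO minus WT in peak-to-trough difference was 0.050 log2 units, so the fitted size was similar, and the fitted peak lay at 14.2 h in WT and 1.65 h in KO. The limma adjusted p was 0.0152, and it ranged from 0.00699 to 0.0446 when each of the 24 libraries was left out in turn. The difference in size turned to -0.022 without the library labelled KO ZT12 replicate A (adjusted p 0.0191), to -0.015 without both doubted libraries (0.0209) and to -0.011 under median-of-ratios scaling (0.0240). It was 0.0881 with time as a 6-level factor.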

How the results depend on the processing

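Of the 9 genes, the number called for genotype stayed at 8 to 9 when each library was left out in turn, that for WT rhythm ran from 0 to 5, for KO rhythm from 0 to 3, and for the difference in rhythm it was 1 each time. Over all genes these fits called 7410 to 8101 genes for genotype, 1194 (without WT ZT8 replicate A) to 2140 for WT rhythm, 272 to 626 for KO rhythm and 37 to 112 for the difference, and 9385 to 10971 transcripts, of which 12 belonged to the 9 genes each time. For WT rhythm, 3 of the 9 passed, against 0 with no filter, 5 under median-of-ratios scaling (also with the library labelled KO ZT4 replicate A left out), 7 in a fit of WT alone, 0 with time as a 6-level factor and 5 without both doubted libraries. For KO rhythm, 2 passed, against 0 with no filter, 0 in a fit of KO alone, 0 with the 6-level factor, 1 under median-of-ratios scaling with the library labelled KO ZT4 replicate A left out and 0 without both doubted libraries. For the difference in rhythm, 1 passed, against 0 with the 6-level factor. Over all genes, 1761 passed for WT rhythm against 2843 in WT alone and 576 with the factor, 468 for KO rhythm against 295 with no filter, 12 in KO alone and 28 with the factor, and 81 for the difference against 43 with no filter and 23 with the factor. With no filter more genes are tested; elsewhere the cause was not tested.

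Genotype differences that turned direction were all near 0. Under median-of-ratios scaling the genotype difference was -0.011 for Slc9a3 (-0.0026 with the library labelled KO ZT4 replicate A left out too), -0.022 for Slc9a3-201, -0.040 for Atp1b1-202, -0.014 for Atp1b1-203 and -0.0033 for Atp1b1-204. With each library left out in turn, that of Atp1b1-203 ran from -0.040 to 0.33 and the Slc12a1-201 share from -0.20 to 1.20 points. The sign of KO minus WT in peak-to-trough difference turned for 5 genes. With each library left out in turn it ran from -0.022 (without KO ZT12 replicate A) to 0.10 for Slc9a3r1, from -0.099 to 0.25 for Slc12a1, -0.0094 to 0.28 for Slc12a3 and -0.084 to 0.13 for Scnn1a (each lowest without KO ZT4 replicate A), and from -0.21 (without KO ZT4 replicate A) to 0.096 for Scnn1g. Under median-of-ratios scaling it was -0.011 for Slc9a3r1 and -0.0013 for Scnn1a, and with the library labelled KO ZT4 replicate A left out too, -0.045 for Slc9a3r1, -0.066 for Slc12a1, -0.013 for Slc12a3 and -0.052 for Scnn1a. Without both doubted libraries it was -0.015 for Slc9a3r1, -0.11 for Slc12a1, -0.012 for Slc12a3 and -0.084 for Scnn1a. For Scnn1g it was 0.070 with mitochondrial genes left out of the total and 0.13 with the 6-level factor.

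No pairing by replicate letter common to all groups was seen. Over 66 pairs of groups the correlation of same-letter deviations ran from -0.32 to 0.34, with a median of 0.022 and 21 pairs over 0.1. In WT, replicate A held fewer genes at 1 TPM or more than replicate B at each time (12415 and 12661 at ZT0). In KO this went both ways. An effect of the letter within a genotype is therefore not excluded. With the letter as a replicate block, 8 of the 9 were called for genotype, 3 for WT rhythm, 3 for KO rhythm (Scnn1a added, adjusted p 0.0333) and 1 for the difference. TPM gives no depth, so no limit from counting could be set.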
